A study of Mus musculus with 19 samples.

Results

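The genes described here encode granule proteins of neutrophils, 4 of the primary granules (Mpo, Prtn3, Ctsg and Elane) and 4 of the secondary granules (Ltf, Camp, Ngp and Lcn2). They were chosen by name, as every probe whose gene name, or a synonym in its description, was 1 of these 8, which gave 9 probes of 41174 on the array and 8 of 27597 gene names. Elane stands under its older name, Ela2, and Ltf has 2 probes. RNA of leukocytes captured from whole blood with the LeukoLOCK filter system was measured on single-color Agilent whole mouse genome arrays. The mice were males of the DBA/2 and B6 (C57BL/6J) strains that had received CAWS, the Candida albicans water-soluble fraction, a complex of mannoprotein and β-glucan that is injected intraperitoneally to induce vasculitis. The 18 samples fall into 10 groups of strain and time, with times of 0, 2, 4, 8 and 9 weeks after CAWS (0 w to 9 w). DBA/2 mice gave a pair of samples at every time. B6 mice gave a pair at 0 w, at 4 w and at 8 w, but only 1 sample at both 2 w and 9 w. The 0 w samples were taken right after the last injection, so that every group carries CAWS and no untreated group is among the samples. The ages of the mice are given only as a range over the whole study. The comparison asks which granule genes changed in the blood after CAWS in the strain with severe disease, DBA/2, and in the strain with milder disease, B6.

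A neutrophil makes its granule proteins in waves while it matures in the bone marrow. The genes of the primary, or azurophil, granules are transcribed mainly by promyelocytes, and those of the secondary, or specific, granules by myelocytes and metamyelocytes, after which most of these transcripts decline as the cell becomes mature. Mature neutrophils of the blood therefore carry the proteins of both kinds of granule with little of the mRNA of the early ones, while immature neutrophils released from the marrow carry more of the mRNA of the later ones. Factors of the C/EBP family, with C/EBPε foremost for the secondary granule genes, and PU.1 are known regulators of these genes.

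Because the 4 secondary granule genes moved together over the samples, the 250 bases before their transcription start sites are shown with those of Mpo, the primary granule gene called at 8 w in DBA/2 mice. The sequences are from RefSeq on GRCm38.p6, in which all 8 genes were found, and are written 5′ to 3′ on the strand of the gene. Capitals mark matches, on either strand, to a C/EBP-like motif (TTNNGCAA, reverse complement TTGCNNAA) and to a PU.1-like motif (AGGAAG, reverse complement CTTCCT). The windows are chr9:111019042-111019291 on the plus strand for Ltf, chr9:109849457-109849706 on the minus strand for Camp, chr9:110419558-110419807 on the plus strand for Ngp, chr2:32387740-32387989 on the minus strand for Lcn2 and chr11:87793534-87793783 on the plus strand for Mpo.
Ltf: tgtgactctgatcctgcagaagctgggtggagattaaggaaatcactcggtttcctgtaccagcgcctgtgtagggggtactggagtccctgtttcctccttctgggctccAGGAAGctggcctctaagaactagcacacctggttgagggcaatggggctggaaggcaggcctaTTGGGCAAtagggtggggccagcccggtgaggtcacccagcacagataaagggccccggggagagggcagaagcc
Camp: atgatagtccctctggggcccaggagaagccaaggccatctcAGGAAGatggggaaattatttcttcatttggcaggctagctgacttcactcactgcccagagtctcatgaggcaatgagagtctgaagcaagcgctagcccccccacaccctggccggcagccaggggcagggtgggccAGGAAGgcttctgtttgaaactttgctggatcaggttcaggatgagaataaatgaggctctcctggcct
Ngp: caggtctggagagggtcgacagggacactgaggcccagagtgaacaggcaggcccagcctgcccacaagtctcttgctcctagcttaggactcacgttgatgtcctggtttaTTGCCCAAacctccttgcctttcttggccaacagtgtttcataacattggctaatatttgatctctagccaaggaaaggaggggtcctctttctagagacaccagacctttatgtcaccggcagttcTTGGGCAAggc
Lcn2: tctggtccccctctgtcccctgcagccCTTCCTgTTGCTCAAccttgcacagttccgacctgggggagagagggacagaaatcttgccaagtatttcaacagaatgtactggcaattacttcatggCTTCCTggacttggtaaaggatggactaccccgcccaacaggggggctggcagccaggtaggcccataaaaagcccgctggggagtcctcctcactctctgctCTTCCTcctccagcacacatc
Mpo: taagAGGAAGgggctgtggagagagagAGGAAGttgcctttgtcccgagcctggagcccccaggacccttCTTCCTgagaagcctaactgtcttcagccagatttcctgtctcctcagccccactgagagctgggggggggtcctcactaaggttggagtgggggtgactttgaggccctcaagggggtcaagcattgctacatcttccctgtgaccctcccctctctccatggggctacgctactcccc
The C/EBP-like motif was found once in Ltf, 75 bases before the start, at 2 places in Ngp (138 and 11 bases before the start), once in Lcn2 (216 bases before the start) and in neither Camp nor any of the 4 primary granule genes. It was in 9.56% of the 32851 RefSeq promoter windows of the same length. The PU.1-like motif, which was in 29.5% of these windows, had 3 matches in Mpo, 2 in Prtn3, 3 in Ctsg, 1 in Elane, 1 in Ltf, 2 in Camp, 0 in Ngp and 3 in Lcn2. The motifs do not overlap in the windows shown, and a match describes the letters only. Ltf, Camp and Ngp lie on chromosome 9, and so do the probes that measure them.

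Values below are scaled signals, that is, the processed signal of a spot after each array was scaled so that its 75th percentile was the same 374 over the 11536 probes that all 19 arrays showed well above background. Changes and differences are in log2 units with their standard errors (SE), and adjusted p values come from limma over all 22939 tested probes, with a call at an adjusted p under 0.05. Since probes differ in how brightly they report an mRNA, only changes, and not levels, are set side by side between genes. Where no array of a group had a probe well above background, that group gives only a bound, and its fold is then written as "at least". This fold sets the brighter group's mean against that of the dimmer group after raising its lowest signals. A signal there under the lowest one well above background on its array (6.90 to 24.4 over the arrays) was raised to that lowest one. Of the 18 samples, Ctsg was well above background in 18, Ltf in 17, Camp in 16, Lcn2 in 14, Mpo and Ngp in 13, Prtn3 in 6 and Elane in 0. On mm8, the build in the files, the probes lie at chr10:79284253-79285069 (Prtn3), chr14:55054029-55054088 (Ctsg), chr10:79291147-79291206 (Elane), chr9:110885185-110885244 (Ltf, with the dimmer probe at chr9:110880576-110883626), chr9:109704884-109704943 (Camp), chr9:110266929-110267477 (Ngp) and chr2:32207526-32207770 (Lcn2). Elane gave scaled signals of 1.5 to 4.9 and was not tested, so that 7 of the 8 genes entered the tests.

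Between 33.9% and 51.4% of the spots were well above background on each array. Markers of the labelled cells were there in every sample, with 14 or 15 of 16 mature neutrophil genes, 9 of 9 monocyte markers, 7 or 8 of 8 T cell markers and 6 or 7 of 7 B cell markers well above background, and so were 7 of 7 platelet and 7 to 9 of 9 erythroid markers. Hepatocyte markers set 4 samples apart. Their summed scaled signal was 7282 to 11800 in B6 mice at 0 w and 8 w, with 8 or 9 of 9 genes well above background, and 242 to 570 in the other 14 samples, with 3 or 4. Beside the blood cell markers, those 4 samples thus hold RNA of genes that leukocytes are not known for. These 4 samples enter every B6 change from 0 w and the strain comparisons at 0 w and 8 w. Through the B6 changes they also enter the comparison of the strains' changes at 4 w and 8 w. Replicate samples differed by an SD of 0.32 to 0.41 on the log2 scale in DBA/2 mice and 0.22 to 0.26 in B6 mice, where the 2 arrays of the same RNA differed by 0.24. The p values therefore measure the spread between these arrays, which in B6 mice was as small as that of a repeated hybridization. In whole leukocyte RNA, more cells of a type and more RNA per cell cannot be told apart.

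Among the secondary granule genes, the rise at 8 w in DBA/2 mice was at least 11.2-fold in all 4 and reached 18.6-fold in Ngp, and the signal of each was lower again at 9 w. Camp, the precursor of the cathelicidin antimicrobial peptide CRAMP, had scaled signals of 125 and 135 at 0 w, 217 and 211 at 2 w, 320 and 307 at 4 w, 1854 and 1797 at 8 w, and 356 and 374 at 9 w. Both samples of each later week lay above both 0 w samples, and the 8 w samples lay far above all the others. Relative to 0 w, Camp rose by 0.73 after 2 w (adjusted p = 0.0034), 1.27 after 4 w (adjusted p = 0.000113), 3.82 after 8 w (14.1-fold, adjusted p = 1.09e-07) and 1.49 after 9 w (adjusted p = 3.11e-05), each with an SE of 0.12.

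Ngp, neutrophilic granule protein, a cystatin-related protein, followed the same course in DBA/2 mice, with 31.2 and 32.4 at 0 w, 66.6 and 65.0 at 2 w, 82.8 and 81.2 at 4 w, 618 and 564 at 8 w and 156 and 177 at 9 w. Its replicates were close at every week, and no 2 weeks overlapped. The changes were 1.05 at 2 w (adjusted p = 0.0191), 1.37 at 4 w (adjusted p = 0.0055), 4.21 at 8 w (18.6-fold, adjusted p = 3.22e-06) and 2.38 at 9 w (5.21-fold, adjusted p = 0.000139), with an SE of 0.25. The 2 w call of Ngp was lost when any 1 of the DBA/2 samples at 0 w or 2 w was left out (change 1.02 to 1.07, adjusted p = 0.0798 to 0.0897).

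Ltf, lactoferrin, the iron-binding protein of the secondary granules, gave 97.1 and 99.6 at 0 w, 168 and 131 at 2 w, 254 and 221 at 4 w, 1369 and 1089 at 8 w, and 245 and 219.6 at 9 w. The 2 w samples were above the 0 w samples without passing the test (0.60, SE 0.26, adjusted p = 0.178). Within the slides this change was 0.79 and 0.40, and it passed with the replicate block (adjusted p = 0.0397) and with the slide as a fixed (adjusted p = 0.0221) or random block (adjusted p = 0.0387). The changes at 4 w (1.27, adjusted p = 0.0113), at 8 w (3.63, 12.4-fold, adjusted p = 1.33e-05) and at 9 w (1.24, adjusted p = 0.00717) passed. The 4 w call was lost without either 0 w sample or without 4 w replicate 1 (adjusted p = 0.058 to 0.0652). The second, dimmer Ltf probe had an 8 w change of 3.66 (SE 0.46, adjusted p = 0.000379) and changes of 1.33 at 4 w and 1.16 at 9 w that did not pass (adjusted p = 0.0889 and 0.0906).

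Lcn2, neutrophil gelatinase-associated lipocalin, which binds bacterial siderophores, was not well above background at 0 w in DBA/2 mice (12.7 and 10.5). It then gave 54.1 and 54.2 at 2 w, 37.7 and 37.0 at 4 w, 171 and 137 at 8 w, and 59.1 and 54.2 at 9 w. Of the 7 tested genes it had the largest change at 2 w, at least 3.95-fold at 2 w (log2 2.23, SE 0.30, adjusted p = 0.00131), against at least 2.73-fold at 4 w (adjusted p = 0.00495), at least 11.2-fold at 8 w (adjusted p = 2.45e-05) and at least 4.13-fold at 9 w (adjusted p = 0.000495). The other secondary granule genes were higher at 4 w than at 2 w, whereas Lcn2 was lower, and these differences between weeks were not tested.

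In DBA/2 mice the 4 secondary granule genes thus gave 3 calls of 4 at 2 w, where 7.91% of all tested probes were called higher, 4 of 4 at 4 w (7.58% of all probes), 4 of 4 at 8 w (10%) and 4 of 4 at 9 w (13.4%). Their median change at 8 w was 3.77, and the median of all tested probes was -0.18. The DBA/2 samples at 0 w, 2 w, 4 w and 8 w with the same replicate number shared a slide, so that the 8 w change could be read within each slide. It was 3.82 and 3.45 for Ltf, 3.89 and 3.74 for Camp, 4.30 and 4.12 for Ngp and 3.75 and 3.70 for Lcn2. The 9 w samples lay on other slides than the 0 w samples, and for that week time and slide cannot be told apart. With another background correction, normexp with an offset of 50, the 8 w changes were 3.07 for Ltf, 3.42 for Camp, 3.03 for Ngp and 1.66 for Lcn2, and all 4 were called at 8 w and at 9 w. None was called under normexp at 2 w (Camp 0.57, Ngp 0.53 and Lcn2 0.78, adjusted p = 0.331 to 0.815), and at 4 w Camp alone was, with Ltf at 0.91, Ngp at 0.69 and Lcn2 at 0.43 (adjusted p = 0.172 to 1.0). At 9 w the median of all tested probes was itself 0.78 under normexp, against -0.03 as reported, so that the 9 w calls there stand on a shifted median.

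**Figure D1:**
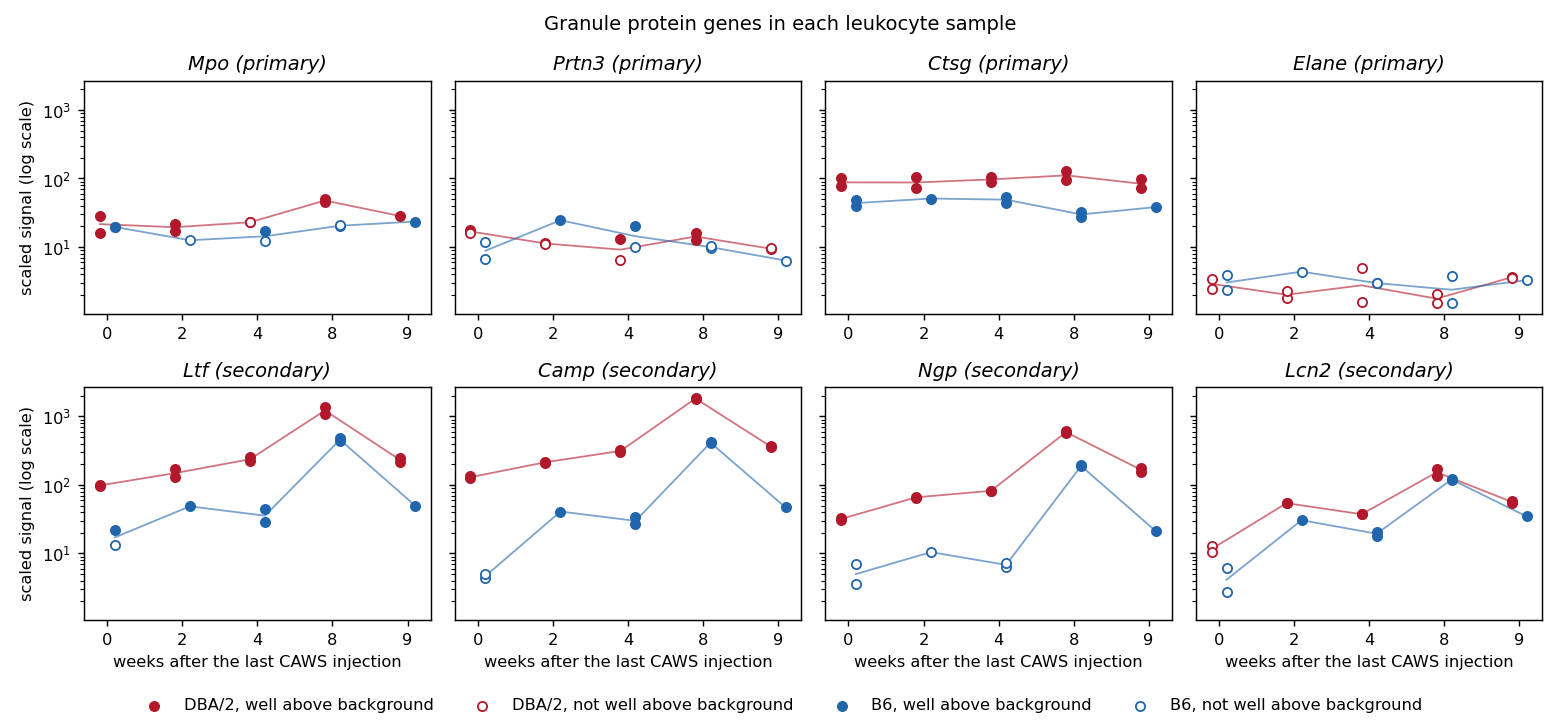
Scaled signal (log axis) of the 8 granule protein genes in each sample against weeks after the last CAWS injection, with primary granule genes above and secondary granule genes below. Filled points were well above background and open points were not, lines join the means of the groups, weeks are spaced evenly, and in both strains the highest Ltf, Camp, Ngp and Lcn2 points are those at 8 w.

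B6 mice started from lower signals, and the same 4 genes were again highest at 8 w. Camp gave 4.34 and 5.01 at 0 w, not well above background, then 40.8 at 2 w, 26.5 and 33.7 at 4 w, 404 and 423 at 8 w, and 46.8 at 9 w. All later samples lay above both 0 w samples. The changes were at least 2.95-fold at 2 w (adjusted p = 4.13e-06), at least 2.16-fold at 4 w (adjusted p = 9.67e-07), at least 29.8-fold at 8 w (adjusted p = 1.03e-08) and at least 3.38-fold at 9 w (adjusted p = 2.19e-06). The fitted log2 change at 8 w was 6.47 (SE 0.12), and the bound is 4.90.

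Ngp in B6 mice was not well above background at 0 w (7.03 and 3.54), at 2 w (10.4) or at 4 w (6.38 and 7.24), and then gave 192 and 186 at 8 w and 20.9 at 9 w. Its 8 w change was at least 13.7-fold (log2 5.24, SE 0.25, adjusted p = 1.23e-06) and its 9 w change at least 1.51-fold (adjusted p = 0.00261). At 2 w it passed the test (adjusted p = 0.0471) between signals that were both under background, so that no change is given, and the call was lost in 23 alternatives (with the floor of 10, adjusted p = 0.571). At 4 w it did not pass (0.44, adjusted p = 0.289).

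Lcn2 in B6 mice gave 2.75 and 6.19 at 0 w, not well above background, 30.5 at 2 w, 18.1 and 20.7 at 4 w, 118 and 122 at 8 w and 34.6 at 9 w. As in DBA/2 mice, its signal at 2 w exceeded that at 4 w. The changes were at least 2.21-fold at 2 w (adjusted p = 0.000607), at least 1.40-fold at 4 w (adjusted p = 0.00122), at least 8.64-fold at 8 w (log2 4.86, SE 0.30, adjusted p = 6.48e-06) and at least 2.5-fold at 9 w (adjusted p = 0.000815).

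Ltf in B6 mice gave 21.98 and 13.4 at 0 w, the latter not well above background, 48.7 at 2 w, 44.2 and 28.6 at 4 w, 485 and 431 at 8 w, and 50.03 at 9 w. The 0 w and later samples did not overlap. The dimmer Ltf probe was well above background on no B6 0 w array. It rose at least 1.54-fold at 4 w (adjusted p = 0.0412) and at least 15.6-fold at 8 w (adjusted p = 7.23e-05). At 9 w it did not pass (adjusted p = 0.0827), nor at 2 w (adjusted p = 0.412), where it was under background too. The brighter Ltf probe changed by 1.51 at 2 w (adjusted p = 0.0135), 1.05 at 4 w (adjusted p = 0.0257), 4.74 at 8 w (26.7-fold, SE 0.26, adjusted p = 3.51e-06) and 1.54 at 9 w (adjusted p = 0.017). Without B6 0 w replicate 2, the sample with the lower Ltf signal, the calls at 2 w (1.15, adjusted p = 0.0576), 4 w (0.69, adjusted p = 0.161) and 9 w (1.19, adjusted p = 0.0658) were lost, and without 4 w replicate 1 so was the 4 w call (0.74, adjusted p = 0.158).

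Counted over the 4 genes, B6 mice gave 3 calls of 4 at 2 w, the Ngp call under background aside (5.28% of all tested probes were called higher), 3 of 4 at 4 w (6.02%), 4 of 4 at 8 w (11.0%) and 4 of 4 at 9 w (5.48%). The median change at 8 w was 5.05 beside -0.04 for all tested probes. The single samples at 2 w and 9 w were assumed to vary like the other groups. Between B6 8 w replicate 2 and the array of B6 0 w replicate 2 on the same slide, the change was 5.13 for Ltf, 6.33 for Camp, 5.27 for Ngp and 4.24 for Lcn2. The hepatocyte markers, at 11500 to 11800 in the B6 0 w samples and 7282 to 7634 in the 8 w samples, were high on both sides of the 8 w change and on the 0 w side of all 4 B6 changes. The part of the hepatocyte signal in these changes was not tested. Under normexp the B6 changes at 8 w were 2.09 for Ltf, 2.41 for Camp and 1.58 for Ngp, all called, and Lcn2 was not called (0.75, adjusted p = 0.198). Under normexp no B6 change of these genes was called at 2 w, 4 w or 9 w, where Camp gave 0.36, 0.33 and 0.16, and at 9 w Ltf (-0.065), Ngp (-0.17) and Lcn2 (-0.086) turned negative. The median of all tested probes under normexp was -0.63 at 8 w and -0.34 at 9 w. With each strain fitted alone, 8 of the B6 calls of the 4 genes and 4 weeks were left, of 15 in the fit of all groups.

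**Figure D2:**
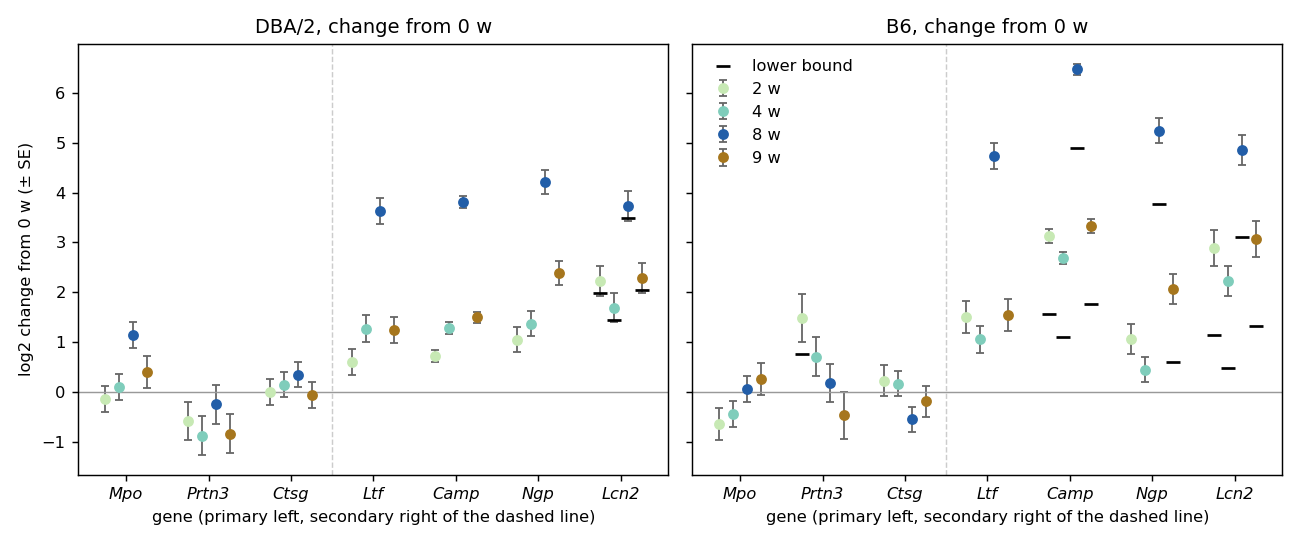
Log2 change from 0 w, with SE, of the 3 tested primary and the 4 secondary granule genes at each later week in DBA/2 mice (left) and B6 mice (right), with black dashes for the lower bound where 1 of the groups was not well above background. The secondary genes reach 3.63 to 4.21 in DBA/2 mice and 4.74 to 6.47 in B6 mice at 8 w, and the primary genes lie between -0.55 and 1.15 at that week.

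Camp, Ltf and Ngp had more signal in DBA/2 than in B6 mice at each of the 3 weeks compared. At 0 w, Camp was at least 9.35-fold higher in DBA/2 mice (adjusted p = 1.73e-08), Ltf 5.74-fold (log2 2.52, SE 0.26, adjusted p = 8.65e-05) and Ngp at least 2.30-fold (adjusted p = 3.79e-05), while Lcn2 passed the test (adjusted p = 0.0041) between signals that were both under background. At 4 w the differences were 10.5-fold for Camp (adjusted p = 8.49e-08), 6.67-fold for Ltf (adjusted p = 4.43e-05), at least 5.96-fold for Ngp (adjusted p = 4.59e-06) and 1.93-fold for Lcn2 (adjusted p = 0.0368). At 8 w they were 4.41-fold for Camp (log2 2.14, adjusted p = 2.02e-06), 2.67-fold for Ltf (log2 1.42, adjusted p = 0.00342) and 3.12-fold for Ngp (log2 1.64, adjusted p = 0.000986), and 1.28-fold for Lcn2, which did not pass (log2 0.35, SE 0.30, adjusted p = 0.444). In numbers, Lcn2 at 0 w aside, 3 of 4 were called higher in DBA/2 mice at 0 w, where 17.2% of all tested probes were, 4 of 4 at 4 w (19.1%) and 3 of 4 at 8 w (10.4%). The Lcn2 value at 0 w lost its call with signals floored at 10 (0.26, adjusted p = 0.151). Under normexp the calls that remained were Camp at all 3 weeks, Ltf at 4 w and 8 w and Ngp at 8 w, while at 0 w Ltf fell to 0.42 (adjusted p = 0.435), Ngp to -0.009 and Lcn2 to -0.56. The median of all tested probes was then -0.44 at 0 w, -0.53 at 4 w and 0.14 at 8 w. The Lcn2 call at 4 w was lost in 9 of the alternatives, 8 of them with 1 sample left out (log2 0.85 to 1.04, adjusted p = 0.0512 to 0.148). At 0 w, 4 w and 8 w no slide held both strains, so that no within-slide value could be had, and with the slide as a random block 15 of the 21 strain comparisons of the 7 genes were called, and 15 without it. Hepatocyte markers were high in B6 mice only, at 0 w and 8 w.

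Whether the change from 0 w differed between the strains was tested directly at 4 w and 8 w. Camp was called at both weeks, with a DBA/2 minus B6 value of -1.41 at the earlier week (adjusted p = 0.000645) and -2.65 at the later (adjusted p = 2.9e-05), where 4.48% and 10.3% of all tested probes were called lower. Both values rest on the B6 0 w signals of Camp, none of which was well above background. The B6 0 w samples also had high hepatocyte markers, and the part of that signal in these differences was not tested. With the B6 change at its bound, the DBA/2 change minus the B6 bound was 0.17 at 4 w and -1.08 at 8 w. With the floor of 10 the 4 w call of Camp was lost (-0.35, adjusted p = 0.163). Under normexp the difference turned its sign, to 0.71 at 4 w and 1.02 at 8 w, and did not pass (adjusted p = 0.707 and 0.153). Ltf, Ngp and Lcn2 did not pass at either week, with negative differences at 8 w (median of the 4 genes -1.12, highest -1.03) that were positive under normexp. Some alternatives called them. At 8 w Ltf passed with the replicate block (-1.10, adjusted p = 0.0127) and with the slide as a fixed (-1.45, adjusted p = 0.00855) or random block (-1.28, adjusted p = 0.00738), Ngp with the slide as a random block (-0.82, adjusted p = 0.019) and Lcn2 under quantile normalization (-1.05, adjusted p = 0.0379). At 4 w the direction was the other one for Ngp with the floor of 10 (1.37, adjusted p = 2.69e-05) and with the slide as a fixed block (1.14, adjusted p = 0.0315), and for Lcn2 with the floor (0.69, adjusted p = 0.0287). With B6 0 w replicate 1 left out, Ltf (-1.46) and Ngp (-1.52) passed at 8 w, and without replicate 2 Ngp (1.42) and Lcn2 (-1.12) passed at 4 w and Lcn2 (-1.72) at 8 w.

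The primary granule genes behaved otherwise. Mpo, the peroxidase that makes hypochlorous acid, had scaled signals of 16.1 and 28.8 at 0 w, 17.4 and 21.7 at 2 w, 22.9 and 22.9 at 4 w, 45.5 and 49.9 at 8 w and 28.3 at 9 w in DBA/2 mice. The spot of 9 w replicate 2 was marked as an outlier by the software and dropped. Its array had 1187 outlier spots, against 64 to 180 on the other arrays. For the other genes, this array is 1 of the pair behind the DBA/2 9 w values. The 8 w samples lay above all the others, and the 0 w replicates differed more than any other Mpo pair. The 8 w change was 1.15 (2.21-fold, SE 0.26, adjusted p = 0.0129), the only call of 12 tests of primary granule genes against 0 w in DBA/2 mice, which is a share like that of all probes, of which 10% were called higher at 8 w and 7.58% to 13.4% over the weeks. Under normexp Mpo was called at 9 w (1.86, from 1 sample), where the median of all tested probes was 0.78. The 8 w call was lost under normexp (0.48, adjusted p = 0.456), with the deposited table (0.98, adjusted p = 0.202) and with outlier spots kept (adjusted p = 0.125). It was also lost without DBA/2 0 w replicate 1 (0.73, adjusted p = 0.0535) and without 8 w replicate 2 (1.08, adjusted p = 0.0727), and within the slides it was 1.50 and 0.80. Another probe, described as the myeloperoxidase gene but without the name Mpo, was called in no comparison and had an 8 w change of -0.47 in DBA/2 mice (adjusted p = 0.471). This other probe was the brighter one, at 86.3 in DBA/2 mice at 0 w, where the Mpo probe gave 21.5. It was well above background in all 18 samples, and the Mpo probe in 13. It lies at chr11:87613485-87613544, and the Mpo probe at chr11:87619795-87620570, both on mm8.

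In B6 mice, Mpo gave 19.8 and 19.4 at 0 w, 12.5 at 2 w, 12.1 and 16.9 at 4 w, 20.0 and 20.8 at 8 w and 23.5 at 9 w, with the 2 w sample and 1 sample at each of 4 w and 8 w not well above background. The weeks overlapped or lay close together, and no change was called (-0.65 to 0.26). DBA/2 mice had more Mpo signal than B6 mice at 8 w (2.33-fold, log2 1.22, adjusted p = 0.00869), and no difference passed at 0 w (0.14, adjusted p = 0.745) or 4 w (0.68, adjusted p = 0.0809). The 8 w difference did not pass without DBA/2 8 w replicate 2 (1.16, adjusted p = 0.0543), under normexp (0.77, adjusted p = 0.0773), with the deposited table (adjusted p = 0.24) or with outlier spots kept (adjusted p = 0.1). The difference between the strains' 8 w changes was 1.09 (SE 0.37) and did not pass (adjusted p = 0.08). It passed with the replicate block (adjusted p = 0.0369), under quantile normalization (1.19, adjusted p = 0.0471) and without DBA/2 0 w replicate 2 (1.51, adjusted p = 0.0124).

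Ctsg, cathepsin G, a serine protease of the primary granules, had the brightest of the probes that bear the name of a primary granule gene. In DBA/2 mice it gave 76.7 and 100.2 at 0 w, 72.4 and 106 at 2 w, 89.4 and 105 at 4 w, 95.4 and 129 at 8 w and 97.6 and 71.9 at 9 w, and in B6 mice 39.0 and 49.0 at 0 w, 51.0 at 2 w, 54.4 and 44.2 at 4 w, 32.3 and 27.6 at 8 w and 38.2 at 9 w. Each DBA/2 sample lay above every B6 sample, and within DBA/2 mice the weeks overlapped. No change from 0 w was called in either strain (8 w: 0.34 in DBA/2 mice, adjusted p = 0.393, and -0.55 in B6 mice, adjusted p = 0.164). The DBA/2 signal was 2.01-fold higher at 0 w (log2 1.00, adjusted p = 0.0132), 1.97-fold at 4 w (log2 0.98, adjusted p = 0.0151) and 3.72-fold at 8 w (log2 1.90, adjusted p = 0.000499). Under normexp these differences were 0.18 at 0 w, 0.15 at 4 w and 1.19 at 8 w, and none passed (adjusted p = 0.7, 0.725 and 0.0927). The 0 w call was lost without DBA/2 0 w replicate 2 (0.81, adjusted p = 0.0922) or B6 0 w replicate 1 (0.84, adjusted p = 0.0892), and the 4 w call without DBA/2 4 w replicate 2 (0.87, adjusted p = 0.0854) or B6 4 w replicate 2 (0.83, adjusted p = 0.0976).

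Prtn3, proteinase 3, another serine protease of these granules, stayed between 6.34 and 24.6 in all samples and was well above background in only 6 of them. Its changes in DBA/2 mice ran from -0.88 at 4 w to -0.25 at 8 w (SE 0.39) and none passed. In B6 mice the largest value was 1.48 at 2 w, in a single sample (24.6), which did not pass (adjusted p = 0.0779). For Elane, neutrophil elastase, no array gave a signal well above background, so that these data give only an upper bound for it.

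**Figure D3:**
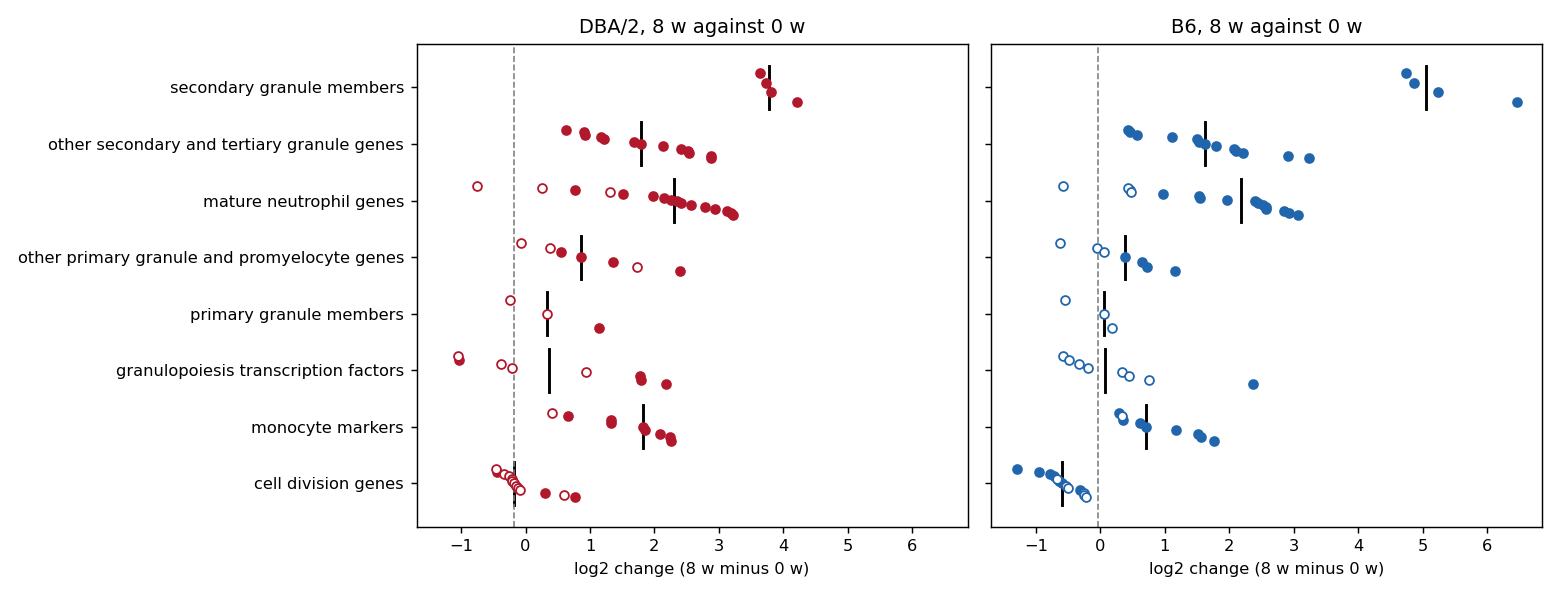
Log2 change from 0 w to 8 w of each tested gene of 8 lists, in DBA/2 mice (left) and B6 mice (right), with filled points for genes called, a black bar for the median of a list and a dashed line for the median of all tested probes (-0.18 and -0.04). The 4 secondary granule genes lie between 3.63 and 4.21 in DBA/2 mice and between 4.74 and 6.47 in B6 mice, and the highest gene of the other lists shown lies at 3.24.

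Set against each other within a sample, the secondary granule genes moved away from the primary ones at every later week. For each sample, the mean change from its strain's 0 w mean was taken over Ltf, Camp, Ngp and Lcn2 and over Mpo, Prtn3 and Ctsg. The secondary mean minus the primary mean was 1.58 and 1.21 at 2 w, 1.53 and 1.70 at 4 w, 3.68 and 3.18 at 8 w and 1.96 and 2.39 at 9 w in DBA/2 mice, where the 0 w samples gave 0.19 and -0.19. In B6 mice it was 1.80 at 2 w, 1.65 and 1.27 at 4 w, 5.43 and 5.44 at 8 w and 2.64 at 9 w, where the 0 w samples gave 0.04 and -0.04. All later samples lay above the 0 w samples of their strain, and the 8 w samples were highest in both strains. At 8 w the primary mean alone was 0.27 and 0.56 in DBA/2 mice and -0.09 and -0.12 in B6 mice. These are descriptions without a test, the last DBA/2 9 w value is without Mpo, and the size of the B6 values depends on 0 w signals under background. The primary mean is limited too, since Prtn3 was well above background in only 6 samples and Mpo in 13. In part it averages signals that were not well above background.

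Over the 18 samples the 4 secondary granule genes ran closely together, with Pearson's r of 0.97 between Ltf and Camp, 0.98 between Ltf and Ngp, 0.96 between Camp and Ngp, and 0.85 to 0.88 between Lcn2 and each of them. The primary genes did not run with each other in this way: r was 0.53 between Mpo and Ctsg (17 samples), 0.14 between Prtn3 and Ctsg and -0.10 between Mpo and Prtn3 (17 samples). Mpo ran more with Ngp (0.73) and Ltf (0.68) than with the other primary genes. These correlations describe samples that share arrays and strain, and the dim primary probes carry little signal. Among the tested genes outside the members, those whose course was most like the mean of the 4 secondary genes were Fpr2, a formyl peptide receptor (r = 0.98, 8 w changes of 2.56 in DBA/2 and 2.85 in B6 mice), Clec5a, a myeloid C-type lectin (r = 0.97, 2.55 and 3.08), Clec7a, the β-glucan receptor Dectin-1 (r = 0.97, 2.26 and 2.56), Slc2a1, a glucose transporter (r = 0.96, 0.77 and 0.90), and Rgs2, a regulator of G protein signalling (r = 0.96, 1.82 and 1.70). The mean of the primary genes was here taken over all 4, with Elane, which was under background in every sample. For this mean the best match was Cypt12 (r = 0.88), itself well above background in only 3 of 18 samples, and of the 4 that followed, Gpr161 (r = 0.82) was the only probe with a gene symbol.

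Other genes of neutrophil granules and of mature neutrophils rose as well, by less in the fit as reported. Of the other secondary and tertiary granule genes, 13 of 13 tested were called higher at 8 w in both strains, against 10% of all tested probes in DBA/2 mice and 11.0% in B6 mice. The medians of these 13 genes were 1.80 in DBA/2 mice (0.63 to 2.88) and 1.63 in B6 mice (0.42 to 3.24). The brightest of them were Lyz2, lysozyme (1.21, adjusted p = 3.66e-05, in DBA/2 mice and 0.46, adjusted p = 0.0116, in B6 mice), Hp, haptoglobin (2.42, adjusted p = 1.09e-07, and 2.07, adjusted p = 2.96e-07), and Chil3, a chitinase-like protein (0.63, adjusted p = 0.00425, and 1.80, adjusted p = 1.02e-05). Both sides of these B6 changes are samples with high hepatocyte markers. The part of that signal, in Hp among others, was not tested. Of the mature neutrophil genes, 13 of 16 were called higher and 0 lower in each strain, with medians of 2.30 and 2.19. S100a8 and S100a9, the subunits of calprotectin, rose by 3.13 and 2.78 in DBA/2 mice and by 3.06 and 2.93 in B6 mice (adjusted p = 4.5e-08 to 2.96e-07), and Retnlg, a resistin-like protein, by 2.41 and 1.55 (adjusted p = 1.4e-07 and 2.88e-06). The smallest 8 w change among the 4 secondary granule genes in DBA/2 mice (Ltf, 3.63) was above the largest among the mature neutrophil genes (3.22). In B6 mice the smallest fitted change (Ltf, 4.74) was above the largest of these (3.06), while the lower bound of Lcn2 (3.11) was near it. Under normexp the 4 secondary granule genes changed by 1.66 to 3.42 in DBA/2 mice and by 0.75 to 2.41 in B6 mice at 8 w. Their order against these lists was not examined in that setting.

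The other primary granule and promyelocyte genes were divided. At 8 w, 4 of 7 tested were called higher and 0 lower in each strain, against 10% of all tested probes called higher in DBA/2 mice and 11.0% in B6 mice. The medians of these genes were 0.86 in DBA/2 mice and 0.38 in B6 mice. The brightest were Srgn, serglycin, the proteoglycan that packs granule proteins (0.55, adjusted p = 0.00143, and 0.38, adjusted p = 0.0115), Plac8 (2.40, adjusted p = 2.59e-07, and 0.73, adjusted p = 0.000575), and Serpinb1a, an inhibitor of neutrophil serine proteases, with -0.07 and 0.06, neither called. Some of these genes, such as Srgn, are also expressed by mature leukocytes. Fcnb and Bpi were not tested, as neither was well above background in at least 2 samples.

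Transcription factors of granulopoiesis gave 3 calls higher and 1 lower of 8 at 8 w in DBA/2 mice, where 10% of all tested probes were called higher and 14.0% lower. In B6 mice they gave 1 higher and 0 lower of 8, where 11.0% and 10.2% of all tested probes were. The 1 lower call in DBA/2 mice and the 1 higher call in B6 mice are shares like those of all probes. The C/EBP family members Cebpd (2.18, adjusted p = 1.53e-07) and Cebpb (1.79, adjusted p = 6.43e-06) were higher in DBA/2 mice, and Irf8, a factor of monocytes, gave -0.21 (adjusted p = 0.129). The other calls, named after their values were seen, were Spi1, the PU.1 gene, higher (1.78, adjusted p = 0.000581), and Myb, a factor of progenitors, lower (-1.03, adjusted p = 0.0327). In B6 mice Cebpd was called (2.38, adjusted p = 1.87e-07), Cebpb gave 0.34 (adjusted p = 0.0696) and Irf8 -0.19, not called. Cebpe has no probe on the array under this name. Of 13 cell division genes, 2 were called higher and 1 lower in DBA/2 mice (median -0.18) and 0 higher and 7 lower in B6 mice (median -0.59), where 10.2% of all tested probes were called lower. Mki67, the proliferation marker, gave -0.45 (adjusted p = 0.0406) and -0.72 (adjusted p = 0.00503), Ccna2, cyclin A2, 0.77 (adjusted p = 0.000112) and -0.64 (adjusted p = 0.000414), and Birc5, survivin, -0.33 and -0.25, neither called.

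Counts for markers of other cells at 8 w stand against 10% of all tested probes called higher and 14.0% lower in DBA/2 mice, and 11.0% and 10.2% in B6 mice. Monocyte markers were called higher in 8 of 9 in each strain (median 1.82 in DBA/2 mice and 0.71 in B6 mice), with F13a1 at 0.67 and 1.76, Ly6c1 at 2.09 and 0.35 and Lyz1 at 1.33 and 0.71, all called. T cell markers were called lower in 6 of 8 and 3 of 8 (medians -0.53 and -0.42), and B cell markers in 4 of 7 and 0 of 7 (medians -0.66 and -0.04). NK cell markers were called higher in 5 of 6 in DBA/2 mice and lower in 4 of 6 in B6 mice. Erythroid markers were called higher in 2 of 9 in DBA/2 mice and lower in 6 of 9 in B6 mice (median -0.85), and platelet markers higher in 2 of 7 and 5 of 7. Eosinophil and basophil markers were called higher in 3 of 9 in DBA/2 mice (median 0.44, range -0.52 to 4.04). Prg2, the eosinophil major basic protein, was the highest of the list there and is named only after its values were seen. It had a fitted 8 w change of 4.04 from a dim probe in DBA/2 mice (adjusted p = 0.000202) and -0.16 in B6 mice (adjusted p = 0.843). In B6 mice 1 of these markers was called higher and 3 lower. Hepatocyte markers were called higher in 1 and lower in 1 of 9 in DBA/2 mice and lower in 1 of 9 in B6 mice. The part of these cell types in the changes of the granule genes was not tested.

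**Figure D4:**
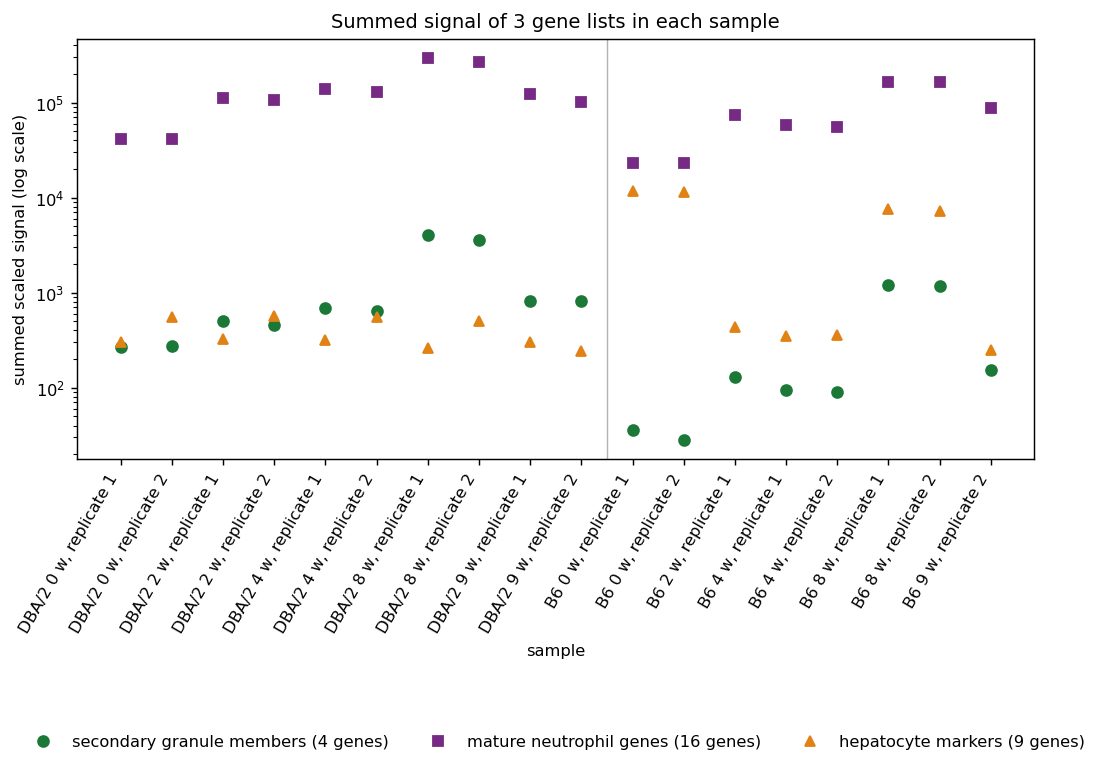
Summed scaled signal (log axis) of 3 gene lists in each of the 18 samples, DBA/2 mice left and B6 mice right of the vertical line. The secondary granule sum runs from 266 to 4011 in DBA/2 mice and from 28.1 to 1198 in B6 mice and is highest at 8 w in both.

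The sums of the lists show the same order. The 4 secondary granule genes summed to 266 and 277 at 0 w and to 3587 and 4011 at 8 w in DBA/2 mice, and to 28.1 and 36.1 at 0 w and 1162 and 1198 at 8 w in B6 mice. The mature neutrophil genes summed to 41260 to 41700 at 0 w and 265400 to 295200 at 8 w in DBA/2 mice, and to 23210 to 23270 and 164600 to 165400 in B6 mice. The monocyte markers went from 7384 and 7646 to 18080 and 18240 in DBA/2 mice, and from 8795 and 8796 to 16820 and 16920 in B6 mice. Within each strain the secondary granule sum thus rose by a larger fold than the sum of the mature neutrophil genes, and that by a larger fold than the monocyte sum, in both samples. In the B6 0 w samples, 1 and 0 of the 4 secondary granule genes were well above background, so that the size of their B6 fold is uncertain. These sums were not tested.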

How the data were processed

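Leukocyte RNA of 18 samples was measured on 19 single-color Agilent arrays, since the RNA of B6 0 w replicate 2 went onto 2 arrays, for which the mean of the log2 values was used. Per the file headers, the spots were extracted with Agilent Feature Extraction 9.5.3.1, and the deposited value of a spot used here is its processed signal, an intensity on the linear scale from which the software subtracted the background and removed trends within the array. The authors also deposited a value table that holds this intensity as a mean per probe, with no normalization across arrays.

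Control and outlier spots were dropped but not saturated ones, and spots of a probe were averaged. From log2 values each array's 75th percentile was subtracted, taken over 11536 probes that every array showed well above background. Of 41174 probes, 24375 were named through their accession, 2 through an alias, 6301 by gene name, 2425 by a synonym, and 8071 kept the name in the files. The 22939 probes that 2 or more samples showed well above background entered lmFit and eBayes of limma 3.58.1 (R 4.3.3) with a mean per group, on 8 residual and 1.37 prior degrees of freedom. Adjusted p values are Benjamini-Hochberg values over all tested probes, and those under 0.05 are called. Contrasts were each later week against 0 w, the strains at 0 w, 4 w and 8 w, and the changes of the strains at 4 w and 8 w. The number of arrays limits the precision.

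The genes, the lists of other genes and markers and the tests were chosen with earlier results of these data known. All 8 granule genes are given, each by the brightest probe under its name, with other probes beside it. The probe described as the myeloperoxidase gene lacks the name Mpo and was brighter than the Mpo probe. From the lists of other granule genes, mature neutrophil genes, transcription factors, cell division genes and monocyte markers the 3 genes brightest over all samples are named and the rest counted. The remaining lists are given as counts. Spi1, Myb and Prg2 are named outside this rule, after their values were seen. For likeness the 5 tested genes with the highest Pearson's r over the samples are named. For AA467197, Ly6g, Cebpe, Ear2, Hbb-b1 and Serpina1a no probe was found, and Elane, Fcnb, Bpi, Olfm4, Bub1, Cdk1 and Epx were not tested.

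Groups were taken from the sample titles. The label that names the technical replicates is at odds with the titles: it puts them on the second B6 0 w array and on DBA/2 2 w replicate 2, where the titles name both arrays of B6 0 w replicate 2, and the titles were followed. The labels call the samples biological replicates, and do not tie arrays to animals. Replicate numbers are shared between groups, but the replicate differences of pairs of groups correlated from -0.03 to 0.83 (0.75 to 0.83 between DBA/2 groups from 0 w to 8 w, which share slides), so that the numbers were not taken to pair the samples over all groups. In those DBA/2 groups the numbers do follow the slides. The fit as reported has no slide term, so that its standard errors include slide differences. With the slide as a random block, the correlation within slides was 0.44. Alternatives were normexp background correction with an offset of 50, quantile normalization, the 75th percentile over all probes, the deposited table as it stands, signals floored at 10, no filter, a filter at 9 samples, a block for the replicate number or for the slide, each strain alone, either array of B6 0 w replicate 2, outlier spots kept and each sample left out in turn. The procedure was tested on simulated data. Tables and figures used Python 3.11.15 with pandas 2.3.3, numpy 2.4.6 and, for plots, matplotlib 3.10.9.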

Additional observations from a re-analysis of the deposited data

Results flagged for a closer look

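The change of Camp from 0 w differed between the strains by a direct test, with a DBA/2 minus B6 value of -1.41 at the earlier week, 4 w (adjusted p = 0.000645), and of -2.65 at the later, 8 w (adjusted p = 2.9e-05). The DBA/2 change was 1.27 and 3.82, and the fitted B6 change was 2.68 and 6.47. The B6 0 w signals behind the latter, 4.34 and 5.01, were not well above background. Those samples also had high hepatocyte markers, whose part in the difference was not tested. With the B6 change at its bound (1.11 and 4.90) the difference was 0.17 and -1.08, without a test. Under normexp both values turned their sign and did not pass (0.71, adjusted p = 0.707, and 1.02, adjusted p = 0.153), and with the floor of 10 the 4 w value did not pass (-0.35, adjusted p = 0.163).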

How the results depend on the processing

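Of the 48 calls over the 7 tested genes, 32 were kept under every alternative other than normexp and 18 under every alternative with it. Under normexp the calls numbered 10 of 28 for DBA/2 mice (16 as reported), 3 of 28 for B6 mice (15, with Ngp at 2 w under background), 6 of 21 between the strains (15) and 0 of 14 for the strain difference of the change (2), and with each strain alone 8 for B6 mice. The strain difference of the change gave 4 calls under quantile normalization, the replicate block, the slide as a fixed block or the second array of B6 0 w replicate 2 alone, and 6 with the deposited table or the slide as a random block. The replicate block gave 17 calls for DBA/2 mice, 14 for B6 mice and 16 between the strains, and doubled only the count of the strain difference. The secondary mean minus the primary mean at 8 w was 2.59 under normexp in DBA/2 mice (3.43 as reported), and in B6 mice (5.43) it was 2.60 under normexp, 5.50 under quantile normalization, 4.71 with the floor, 5.57 with the filter at 9 samples, 5.34 and 5.32 with the slide as a fixed and a random block, and 5.54 and 5.32 with the first and the second array of B6 0 w replicate 2.

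With 1 sample left out, the calls ranged from 13 to 16 for DBA/2 mice, 11 to 16 for B6 mice (where leaving out the lone 2 w or 9 w sample removes that week), 13 to 16 between the strains and 2 to 5 for the strain difference (4 without B6 0 w replicate 1 and 5 without replicate 2). The secondary minus primary mean then ranged from 3.18 to 3.68 and from 5.39 to 5.48. The call of Ngp at 2 w was lost in 23 alternatives in B6 mice and in 9 in DBA/2 mice.

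Values that turned their sign under normexp were, for changes in B6 mice, Mpo at 8 w (-0.87) and 9 w (-0.50), Prtn3 at 2 w (-0.015) and 8 w (-1.01), and at 9 w Ltf (-0.065), Ngp (-0.17) and Lcn2 (-0.086), in DBA/2 mice at 9 w Prtn3 (0.92) and Ctsg (0.43), between the strains at 0 w Mpo (-0.59), Prtn3 (-0.53), Ngp (-0.009) and Lcn2 (-0.56) and at 4 w Mpo (-0.55) and Lcn2 (-0.34), and in the strain difference Camp (0.71) and Lcn2 (0.22) at 4 w and Camp (1.02), Ltf (0.98), Ngp (1.45), Lcn2 (0.91) and Prtn3 (0.93) at 8 w. With the deposited table these were, in B6 mice, Ctsg at 8 w (0.47) and 9 w (0.27), between the strains Prtn3 at 4 w (0.15) and Lcn2 at 8 w (-0.013), and in the strain difference at 8 w Mpo (-0.10) and Ctsg (-0.30), and with the floor the Lcn2 difference at 4 w (0.69) and 8 w (0.094). With 1 sample left out, turned values lay in these ranges: Mpo in DBA/2 mice from -0.57 to 0.27 at 2 w, from -0.33 to 0.51 at 4 w and from -0.024 to 0.81 at 9 w (lower ends without 0 w replicate 1), Mpo between the strains at 0 w from -0.28 to 0.55 (without DBA/2 0 w replicate 2 and 1), Prtn3 at 8 w from -0.23 to 0.58 and Ngp at 4 w from -0.05 to 0.94 in B6 mice (without 0 w replicate 2 and 1), the Lcn2 strain difference at 4 w from -1.12 to 0.044 (without B6 0 w replicate 2 and 1), and Ctsg in DBA/2 mice at 2 w up to 0.27 (without 2 w replicate 1). A further 21 uncalled values crossed 0 by less than 1 SE. The normexp setting moved the median of all tested probes most in DBA/2 mice at 9 w (from -0.03 to 0.78) and the unscaled deposited table most in the strain difference at 8 w (from -0.07 to -1.26), and the cause of the other turns was not tested. The signal over background limits all statements on Elane, Prtn3, Mpo and the B6 0 w samples.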
